A study of Mus musculus with 15 samples.

Results

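The 9 STAT and IRF transcription factor genes described here are Stat2, Stat3, Stat6, Irf1, Irf2, Irf5, Irf7, Irf8 and Irf9. They were chosen by gene symbol from the 34432 genes listed in both tables of normalised read counts. The rule itself uses no measured value, but the members were chosen with earlier results of these data known. RNA was sequenced from CT26 cells, a mouse colon carcinoma line, in 15 libraries from 2 experiments. In the first, 3 libraries came from cells with a control hairpin (shControl, genotype Ctrl knockdown) and 3 from cells with a hairpin against Prmt1 (shPrmt1). The Prmt1 hairpin was switched on by doxycycline (DOX) in 1 stable line for 3 days, and whether shControl cells also received DOX is not stated in the labels. In the second, wild-type cells were given vehicle or 1 of 2 inhibitors, MS023 and GSK3368715, each at 6 µM, for 48 hours, with 3 libraries per group. PRMT1 is the main enzyme that places asymmetric dimethyl marks on arginine, and both compounds inhibit the type I arginine methyltransferases to which it belongs. The study's methods speak of independent experiments or biological replicates in general, and nothing in the labels says whether the libraries of a group came from separate cultures, so p-values measure the spread between these libraries, which may be technical.

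STAT proteins wait in the cytoplasm until a JAK kinase bound to a cytokine receptor phosphorylates them, and then enter the nucleus as pairs. After type I interferon, STAT2 joins IRF9 in a complex that binds the interferon-stimulated response element (ISRE), while pairs of STAT proteins bind the GAS element. STAT3 answers to the IL-6 family and STAT6 to IL-4 and IL-13. Among the IRF proteins, IRF1 and IRF7 activate interferon and interferon-response genes, IRF2 competes with IRF1 for the same sites, IRF5 acts below Toll-like receptors, and IRF8 directs the development of myeloid cells. Several of these genes are themselves induced by interferon, so their mRNA is both a part of the pathway and one of its outputs.

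The DNA just before the start sites was searched for both elements, because several of the genes moved in the same direction. RefSeq start sites (GRCm38.p6) gave 12 windows for the 9 genes, each with 250 bases before the start and 50 after it. An ISRE, spelled AAANNGAAA on either strand, was found for 2 of the 9 genes, Stat2 and Irf2, and in 12.1% of all 27025 genes with a window. A GAS element, spelled TTCNNNGAA, was found for 3 of the 9, Irf1, Irf2 and Irf8, and in 9.55% of all genes. The stretches below are shown because they hold the ISRE of Stat2, the closely spaced ISRE and GAS of Irf2, and the GAS of Irf1 and of Irf8. Capitals mark the element, and each is read 5′ to 3′ on the plus strand, which is the strand of these 4 genes.
Stat2 ISRE (chr10:128270260-128270300): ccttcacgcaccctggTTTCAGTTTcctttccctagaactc
Irf2 ISRE (chr8:46739495-46739529): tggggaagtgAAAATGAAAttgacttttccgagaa
Irf2 GAS (chr8:46739505-46739545): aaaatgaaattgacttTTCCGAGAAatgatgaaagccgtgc
Irf1 GAS (chr11:53769908-53769948): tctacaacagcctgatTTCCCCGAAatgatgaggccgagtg
Irf8 GAS (chr8:120736171-120736211): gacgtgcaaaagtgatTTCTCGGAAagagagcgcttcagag
The ISRE of Stat2 lies on the minus strand and begins at position −222 from the start, and that of Irf2 begins at −240. The GAS elements begin at −224 in Irf2, −90 in Irf1, and −171 and −153 in Irf8. These matches describe letters only. In the windows of Stat3, Stat6, Irf5, Irf7 and Irf9 neither spelling occurs.

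The tables held from 17284091 to 29233738 reads on genes per library in the knockdown experiment and from 40119305 to 93697833 in the inhibitor experiment. Prmt1 itself had 5601, 5717 and 5620 normalised counts with the control hairpin and 669, 761 and 683 with its own hairpin, and it was not called under either inhibitor. Of the 9 epithelial markers, Epcam and Cldn7 were at 0 reads in every library, and Cdh1, Krt19 and Vil1 had at most 12. Krt8 had 2 to 40 reads per library and Cdx2 4 to 27. Krt18 was measured at group means from 15.7 to 27.0 reads per 1000000 reads on genes (CPM). Krt20 was measured at group means from 5.73 to 8.44 CPM, and the mesenchymal gene Vim at 3112 CPM or more. Of the other mesenchymal markers, Col1a1, Col1a2 and Pdgfrb were measured in every library, Thy1 was at 0 in all of them, and Dcn had 0 to 2 reads per library in the knockdown experiment. Of the leukocyte markers, Cd3e was at 0 in every library and Cd68 had 22 to 49 reads per library in the knockdown experiment and 133 to 344 in the inhibitor experiment. The summed level of the 11 leukocyte markers ran from 1.56 to 2.37 CPM in the knockdown experiment and from 3.64 to 5.02 CPM in the inhibitor experiment, mostly from Cd68. Several markers of the other 2 lists changed. Pdgfrb was called higher in all 3 comparisons with a control, by 0.69 in the knockdown, 0.40 with MS023 and 0.64 with GSK3368715 on the log2 scale. Krt18 was called lower in the knockdown (−0.41) and higher with MS023 (0.55) and GSK3368715 (0.27), and Krt8 higher with MS023 (1.83). The Krt8 value rests on few reads, 2 to 9 per library with vehicle and 19 to 40 with MS023. Col1a1 was called higher in the knockdown (0.97) and lower with MS023 (−0.52), as was Col1a2 with MS023 (−0.22). The part of these shifts in the members' values was not tested.

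Per length of transcript the members fell into 7 abundant and 2 scarce mRNAs. Levels are given in RPKM, the CPM of a gene divided by the length of its principal transcript in kilobases. In vehicle cells Irf7 was the highest at 64.4 ± 15.8 RPKM (SD, n = 3), followed by Stat6 at 35.2 ± 0.929, Stat2 at 34.2 ± 4.58 and Irf9 at 29.4 ± 4.49 (SD, n = 3 each). The ranges of Stat6 and Stat2 overlapped, as did those of Stat2 and Irf9. Irf1 at 20.6 ± 1.63, Irf2 at 14.98 ± 0.281 and Stat3 at 9.97 ± 0.512 came next, each apart from its neighbours. Irf5 at 1.08 ± 0.0574 and Irf8 at 0.524 ± 0.107 were lowest (SD, n = 3 each).

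In shControl cells the order differed. Stat6 was highest at 33.5 ± 1.15, then Irf2 at 12.5 ± 0.585, Irf1 at 10.9 ± 0.189, Irf9 at 10.1 ± 0.189 and Stat3 at 8.59 ± 0.199 (SD, n = 3 each), with no overlap between neighbours. Stat2 at 6.88 ± 0.429 and Irf7 at 6.17 ± 0.742 overlapped, and Irf8 at 0.597 ± 0.156 and Irf5 at 0.277 ± 0.0550 were again lowest. The mean level in vehicle cells over that in shControl cells was 10.4 for Irf7, 4.96 for Stat2, 3.89 for Irf5, 2.90 for Irf9 and 1.89 for Irf1. It was 1.19 for Irf2, 1.16 for Stat3, 1.05 for Stat6 and 0.878 for Irf8. The 2 control groups come from separate experiments, so hairpin, culture and sequencing run cannot be told apart, and no test was made between them.

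**Figure D1:**
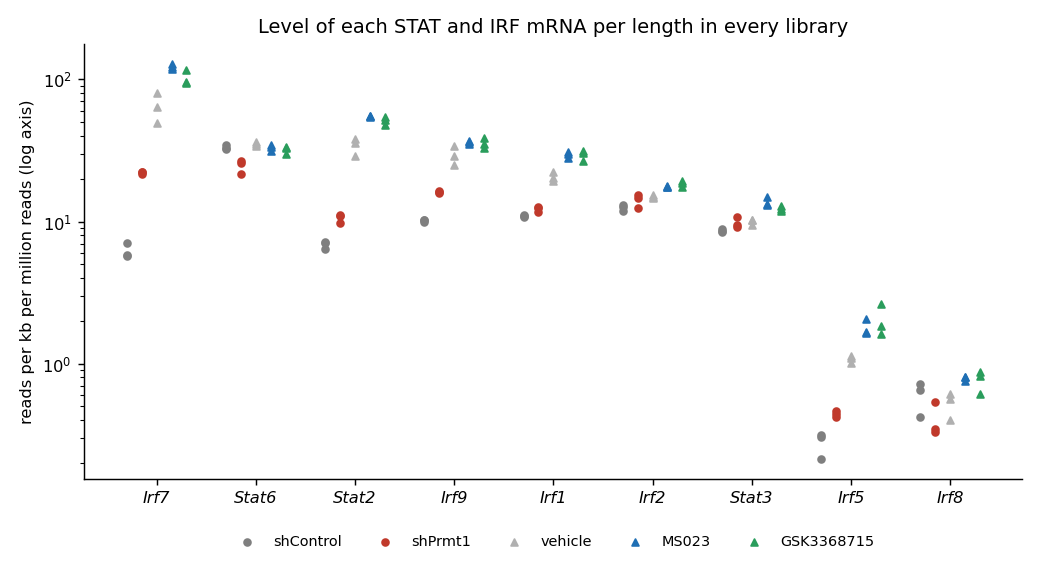
RPKM (log axis) for each member in every library, with circles for the knockdown experiment and triangles for the inhibitor experiment, ordered by the vehicle mean. Irf7 runs from near the level of Stat2 in shControl cells to the highest of the 9 in vehicle cells, and Irf5 and Irf8 lie below the other members in every library.

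The first comparison asks how these genes respond to loss of the enzyme. Irf7, Irf9 and Stat2 rose, Stat6 fell, and the other 5 were not called by limma on log2(normalised count + 1) at an adjusted p-value under 0.05. All 9 were among the 11485 genes tested, of which 14.7% were called in either direction, 7.5% higher and 7.17% lower. The groups did not overlap for 7 of the 9 members, against 38% of all genes tested. The median log2 fold change was 0.15 over the 9 members and −0.0036 over all genes tested. In bulk RNA, fewer cells that express a gene and less RNA per cell cannot be told apart.

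Irf7, which drives the amplifying wave of interferon production, had 287, 230 and 233 normalised counts in shControl cells and 870, 895 and 851 in shPrmt1 cells. The lowest knockdown value was far above the highest control value. The log2 fold change was 1.80 (SE 0.103, adjusted p = 5.1e-05, limma), a 3.49-fold rise, and it was the largest change of the 9. By p-value Irf7 ranked 15 among all genes tested.

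Irf9, the DNA-binding subunit of the STAT2 complex, had 535, 533 and 515 normalised counts in shControl cells and 828, 827 and 810 in shPrmt1 cells. Both groups were tight and lay far apart, with a log2 fold change of 0.64 (SE 0.0698, adjusted p = 0.00096, limma). Stat2, its partner, had 599, 654 and 666 normalised counts in shControl cells and 885, 1010 and 1012 in shPrmt1 cells. Its rise was close to that of Irf9, at a log2 fold change of 0.60 (SE 0.0857, adjusted p = 0.0034, limma). Of the 2 members with an ISRE in the window searched, printed above, Stat2 was called and Irf2 was not. Neither spelling was found in the windows of Irf7 and Irf9. The part of these matches in the response was not tested.

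Stat6, the factor of IL-4 and IL-13 signalling, was the only member called lower in any of the comparisons. It had 2669, 2593 and 2774 normalised counts in shControl cells and 1990, 1697 and 2073 in shPrmt1 cells. No shPrmt1 library reached the shControl range, and the log2 fold change was −0.48 (SE 0.0843, adjusted p = 0.0078, limma), a decrease of 28.5%. Nab2, which shares 40 exon bases with Stat6 on the opposite strand, was also called lower, with a log2 fold change of −0.41 (adjusted p = 0.026, limma). The strand used in counting is not given in the sources used here, and the part of shared reads in the Stat6 value was not tested.

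Stat3 had 821, 837 and 803 normalised counts in shControl cells and 873, 861 and 997 in shPrmt1 cells, without overlap but not called (log2 fold change 0.15, 95% interval −0.037 to 0.33, adjusted p = 0.25, limma). Irf1, the activator of antigen-presentation and GTPase genes, had 499, 499 and 483 in shControl cells and 557, 524 and 552 in shPrmt1 cells. These groups were also apart, and the difference was small and not called (0.14, 95% interval −0.033 to 0.31, adjusted p = 0.25, limma). Irf2 overlapped, with 673, 688 and 628 normalised counts in shControl cells and 749, 804 and 642 in shPrmt1 cells (0.14, 95% interval −0.087 to 0.36, adjusted p = 0.38, limma).

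Irf5 and Irf8 had only 13 to 45 reads per library in the knockdown experiment. Irf5 had 14.97, 10.1 and 14.4 normalised counts in shControl cells and 19.4, 20.6 and 21.4 in shPrmt1 cells (log2 fold change 0.62, 95% interval −0.033 to 1.28, adjusted p = 0.18, limma). Irf8 had 39.6, 25.2 and 43.1 in shControl cells and 19.4, 20.6 and 31.6 in shPrmt1 cells (−0.57, 95% interval −1.25 to 0.11, adjusted p = 0.23, limma). The intervals are wide enough to hold no change as well as a doubling of Irf5 or a halving of Irf8.

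**Figure D2:**
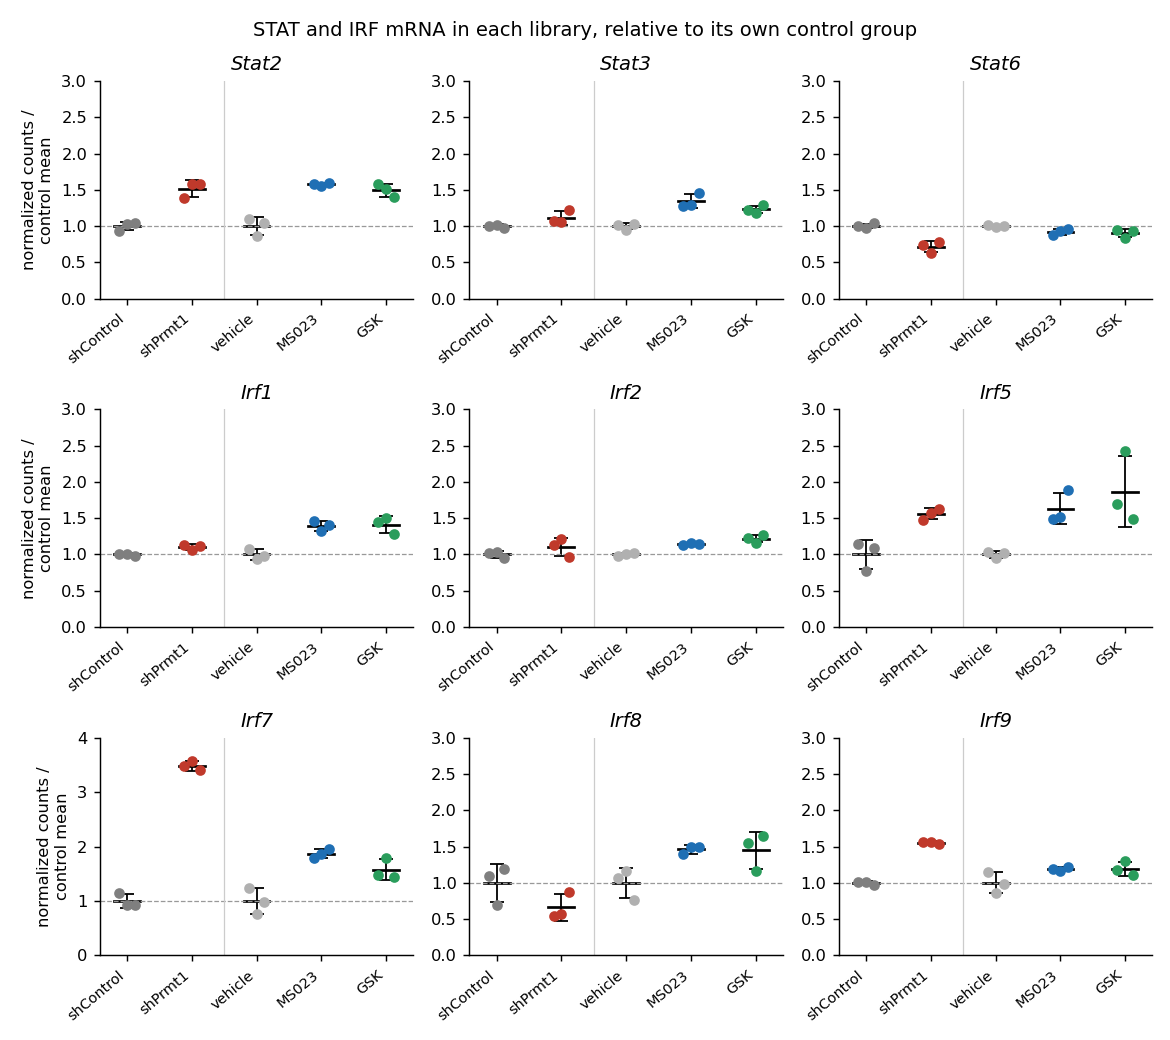
Normalised counts of each member in every library divided by the mean of its own control group (shControl or vehicle), with points for libraries, thick bars for means and error bars for SD (n = 3), GSK standing for GSK3368715. The Irf7 axis reaches higher than the others. In the knockdown Irf7 stands 3.48 times above its control mean and Stat6 lies below it at 0.717, and under both inhibitors the means of every member but Stat6 lie above 1.

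The second experiment asks how the 9 genes respond to 48 hours of inhibition. With MS023, 7 of the 9 members rose (Stat2, Stat3, Irf1, Irf2, Irf5, Irf7 and Irf8) and none was called lower by limma, also at an unadjusted p under 0.05 and by edgeR and DESeq2. Of the 13014 genes tested, 27.9% were called in either direction and 13.7% higher. All 9 members were apart from vehicle, 8 of them higher, against 44.5% of all genes tested. The median log2 fold change was 0.48 over the members and 0.0028 over all genes tested.

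With GSK3368715, the same members rose except Irf8, 6 of 9, and none was called lower at the adjusted threshold, with 1, Stat6, lower at an unadjusted p under 0.05. Here 9.64% of all genes tested were called in either direction and 5.16% higher. The groups did not overlap for 7 members, 6 of them higher, against 27.7% of all genes. The median log2 fold change was 0.50 over the members and 0.00042 over all genes tested. Both compounds were compared with the same 3 vehicle libraries, so the 2 sets of values are not independent.

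Irf7 again had the largest called fold change under MS023. Its normalised counts were 9198, 5699 and 7291 in vehicle cells, 13309, 13774 and 14503 with MS023, and 10902, 13320 and 10727 with GSK3368715. All treated libraries were above all vehicle libraries, although vehicle itself spanned a wide range. The log2 fold change was 0.93 with MS023 (SE 0.144, adjusted p = 0.0011, limma) and 0.68 with GSK3368715 (SE 0.144, adjusted p = 0.017, limma). The GSK3368715 call was lost without GSK3368715 library 2 (adjusted p = 0.057) or without vehicle library 3 (adjusted p = 0.055).

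Stat2 had 9914, 7736 and 9369 normalised counts in vehicle cells, 14243, 14025 and 14290 with MS023, and 14190, 13615 and 12560 with GSK3368715. The groups did not overlap, and the log2 fold changes were 0.66 (SE 0.0839, adjusted p = 0.00037, limma) and 0.59 (SE 0.0839, adjusted p = 0.0029, limma). Stat2 and Irf7 were the 2 members called higher in all 3 comparisons with a control.

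Irf9, the partner of Stat2, was not called. It had 4987, 3736 and 4293 normalised counts in vehicle cells, 5204, 5029 and 5306 with MS023, and 5108, 5647 and 4811 with GSK3368715. The log2 fold changes were 0.27 (95% interval 0.054 to 0.48, adjusted p = 0.061, limma) and 0.26 (95% interval 0.054 to 0.48, adjusted p = 0.11, limma). Vehicle library 1 was the highest of its group for Irf9, Irf7, Stat2 and Irf1, and without it Irf9 passed under MS023 (0.37, adjusted p = 0.0079) and GSK3368715 (0.37, adjusted p = 0.019). With all libraries kept, Irf9 passed under MS023 by DESeq2 (adjusted p = 0.039). Rnf31, which shares 123 exon bases with Irf9 on the same strand, was called higher under both compounds, by 0.20 with MS023 and 0.27 with GSK3368715 on the log2 scale. The part of shared reads in the Irf9 value was not tested.

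Irf1 had 2849, 2482 and 2594 normalised counts in vehicle cells, 3845, 3491 and 3721 with MS023, and 3823, 3979 and 3383 with GSK3368715. The groups lay apart, with log2 fold changes of 0.48 (SE 0.0758, adjusted p = 0.0013, limma) and 0.50 (SE 0.0758, adjusted p = 0.0041, limma). Irf2, the factor that competes with IRF1, rose by less. It had 2190, 2264 and 2285 in vehicle cells, 2548, 2611 and 2570 with MS023, and 2761, 2611 and 2851 with GSK3368715. Its log2 fold changes were 0.20 (SE 0.0534, adjusted p = 0.019, limma) and 0.29 (SE 0.0534, adjusted p = 0.0096, limma). The MS023 call was lost without MS023 library 2 (adjusted p = 0.071) or 3 (adjusted p = 0.056).

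Stat3 had 2746, 2570 and 2795 normalised counts in vehicle cells, 3448, 3492 and 3923 with MS023, and 3296, 3199 and 3480 with GSK3368715. Every treated library was above vehicle, by a log2 fold change of 0.42 (SE 0.0656, adjusted p = 0.0012, limma) and 0.30 (SE 0.0656, adjusted p = 0.018, limma). Without GSK3368715 library 3 the second call was lost (adjusted p = 0.066). Stat6 lay slightly below vehicle in all treated libraries, with 8117, 7832 and 7962 in vehicle cells, 6933, 7389 and 7641 with MS023, and 7489, 6707 and 7428 with GSK3368715. Neither difference was called, at −0.12 (95% interval −0.25 to 0.0047, adjusted p = 0.14, limma) and −0.15 (95% interval −0.27 to −0.018, adjusted p = 0.14, limma). The intervals are not adjusted for the number of genes.

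The 2 scarce members were better measured here, with 57 to 346 reads per library. Irf5 had 150, 138 and 147 normalised counts in vehicle cells, 216, 221 and 273 with MS023, and 245, 351 and 216 with GSK3368715. It was the member with the largest fold change under GSK3368715, at 0.87 on the log2 scale (SE 0.173, adjusted p = 0.013, limma), and 0.70 with MS023 (SE 0.173, adjusted p = 0.013, limma). The MS023 call was lost without MS023 library 3 (adjusted p = 0.058). Irf5 shares 411 exon bases, 14.1% of its own, with Tnpo3 on the opposite strand. Tnpo3 had a mean of 18191 normalised counts in this experiment and was not called, at −0.040 with MS023 and −0.050 with GSK3368715 on the log2 scale. In the knockdown experiment its mean was 7486, and it was not called there. The part of shared reads in the Irf5 values and levels was not tested in either experiment.

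Irf8 had 95.3, 105 and 68.7 normalised counts in vehicle cells, 125, 135 and 134 with MS023, and 139, 104 and 147 with GSK3368715. MS023 libraries were all above vehicle, while GSK3368715 library 2 fell within the vehicle range. The log2 fold changes were 0.56 (SE 0.188, adjusted p = 0.046, limma) and 0.54 (SE 0.188, adjusted p = 0.098, limma). The MS023 call sat at the threshold and was lost by edgeR (adjusted p = 0.058) and without any single library of MS023 (adjusted p from 0.086 to 0.12), or without vehicle library 1 (adjusted p = 0.056) or 3 (log2 fold change 0.39, adjusted p = 0.16), or GSK3368715 library 1 (adjusted p = 0.057). Leukocytes express Irf8 and Irf5 strongly. The summed leukocyte markers were 3.64 to 4.88 CPM with vehicle, 4.28 to 5.02 with MS023 and 3.64 to 4.53 with GSK3368715, and of the 2 such markers that could be tested none was called by limma.

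**Figure D3:**
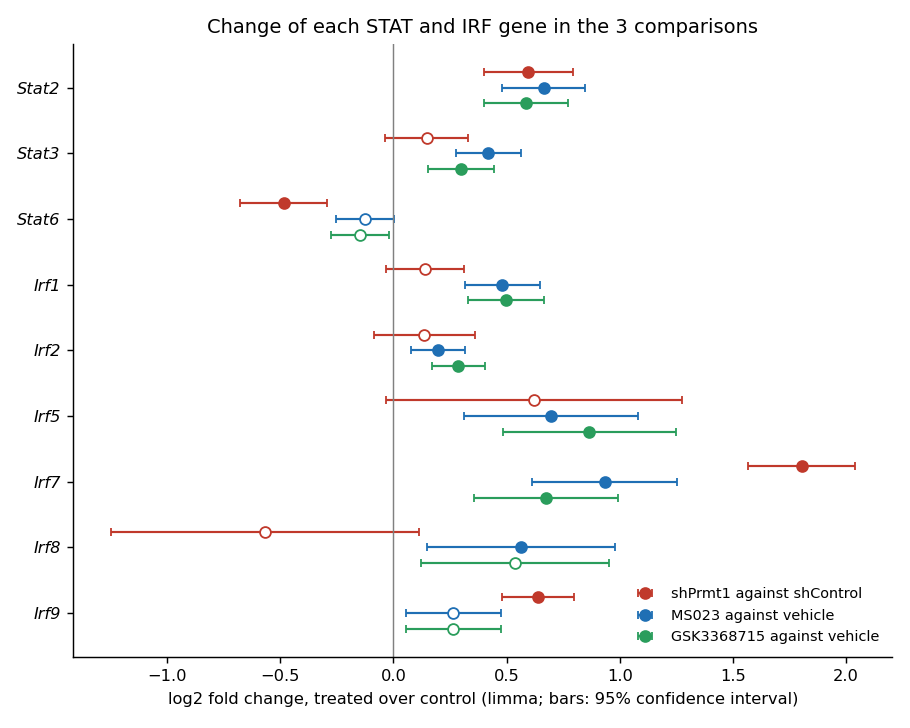
Log2 fold change of each member over its own control, with 95% confidence intervals from limma that are not adjusted for the number of genes; filled circles passed the adjusted threshold and open circles did not. Irf7 in the knockdown stands apart at 1.80, and Stat6 in the knockdown is the filled circle to the left of 0.

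Set side by side, Stat3, Irf1, Irf2 and Irf5 were called higher under both inhibitors and not in the knockdown, and Stat6 and Irf9 were called in the knockdown and under neither inhibitor. For Irf7 the log2 fold change was 1.80 in the knockdown, 0.93 with MS023 and 0.68 with GSK3368715. Its control level was 6.17 RPKM in shControl cells and 64.4 RPKM in vehicle cells. The knockdown and the inhibitors were measured in separately normalised tables, and the difference between their effects was not tested.

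At the same dose and time, GSK3368715 and MS023 gave values that could not be separated for any of the 9 members by limma, also at an unadjusted p under 0.05 and by edgeR and DESeq2. Over all genes, 0.515% were called between the compounds. Irf7 had the largest difference, lower with GSK3368715 by 0.26 on the log2 scale (log2 difference −0.26, 95% interval −0.58 to 0.061, adjusted p = 0.49, limma). Irf5 differed by 0.17 (95% interval −0.21 to 0.55, adjusted p = 0.73, limma) and Stat3 by −0.12 (95% interval −0.27 to 0.023, adjusted p = 0.47, limma). Irf2 differed by 0.09 (95% interval −0.029 to 0.21, adjusted p = 0.52, limma) and was not called, although its libraries did not overlap between the compounds. The share of all genes without overlap is not given for this comparison, so nothing is read from that separation. Intervals for the other 5 were widest for Irf8 (−0.44 to 0.39) and narrowest for Stat6 (−0.15 to 0.11), so differences within those bounds remain possible.

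Around these factors, the genes that STAT2 with IRF9 is known to bind through the ISRE rose with few exceptions. Of 20 such genes, 19 were called higher in the knockdown, 17 with MS023 and 16 with GSK3368715, and none lower by limma. Over all genes tested 7.5%, 13.7% and 5.16% were called higher. The median log2 fold change of the 20 genes was 1.13, 0.59 and 0.53. Like the other lists, this one was chosen with earlier results of these data known. Mx1 passed the filter of 10 normalised counts in 3 knockdown libraries only through shPrmt1 (mean 28.8, against 6.61 in shControl cells). It could not be called lower there. In the knockdown Ifi44 went from 599 ± 21.8 to 3172 ± 595 normalised counts (SD, n = 3, log2 fold change 2.39, adjusted p = 3.0e-05, limma). Rsad2, an antiviral enzyme, rose by 1.68, 0.94 and 0.97 on the log2 scale in the 3 comparisons. Ifit2 was not called in any, at 0.19, 0.04 and 0.17. The relation between the factors and these genes was not tested, since all respond in the same libraries.

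Known targets of IRF1 rose also in the knockdown, where Irf1 itself was not called. Of those tested, 14 of 17 were called higher in the knockdown, 16 of 18 with MS023 and 16 of 18 with GSK3368715, and none lower by limma. Over all genes tested the shares called higher were 7.5%, 13.7% and 5.16%. The median log2 fold change of these targets was 1.37, 0.77 and 0.69. Psmb9 passed the count filter in the knockdown only through shPrmt1 (mean 27.1 normalised counts, against 6.28 in shControl cells). It could not be called lower there. Gbp2, an interferon-induced GTPase, rose by 1.86, 1.52 and 1.34 on the log2 scale. Cxcl10, a chemokine for T cells, was also called higher in all 3 comparisons, by 1.198 in the knockdown, 0.77 with MS023 and 1.08 with GSK3368715. Psmb10 (−0.18), Tap2 (0.38) and Nlrc5 (2.11, adjusted p = 0.073, limma) were the 3 not called in the knockdown. The relation between Irf1 and these genes was not tested.

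Known targets of STAT3 were called in both directions in the knockdown and with MS023. In the knockdown 4 of 16 were called higher and 2 lower, with MS023 1 of 17 higher and 3 lower, and with GSK3368715 2 of 17 lower. Over all genes tested the shares called were 14.7%, 27.9% and 9.64%, so with either inhibitor these counts lie near the background. Their medians of 0.04, 0.05 and 0.0060 lay near those of all genes. Timp1, an inhibitor of matrix proteases, fell by 0.39 in the knockdown, 0.68 with MS023 and 0.34 with GSK3368715 on the log2 scale. Lcn2, an iron-binding acute-phase protein, had a mean of 1.80 normalised counts in shControl cells and 24.7 in shPrmt1 cells. It passed the count filter there only through shPrmt1, so it could not be called lower in the knockdown. With MS023 Lcn2 rose by 1.05 on the log2 scale. Of 12 targets of STAT6, only 4 could be tested in the knockdown and 6 with the inhibitors. In the knockdown 1 was called higher, with MS023 1 higher and 1 lower, and with GSK3368715 1 higher. These are too few to set against the shares of all genes. Their medians were −0.36, 0.17 and −0.030. In the knockdown Mrc1 (−0.77), Socs1 (−0.52) and Bcl6 (−0.20) had negative log2 fold changes and were not called. Il4ra, the IL-4 receptor chain through which STAT6 is activated, was called higher in all 3 comparisons, by 0.54, 0.76 and 0.59, and Bcl6, a repressor, was called lower with MS023 (−0.27).

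Among the receptors and JAK kinases above the STATs, 4 of 12 were called higher in the knockdown, 4 of 13 with MS023 and 2 of 13 with GSK3368715, and none lower by limma. Over all genes tested 7.5%, 13.7% and 5.16% were called higher. Il4ra and Il13ra1, which together form the receptor of IL-13, were the ones called in all 3. Il13ra1 went from 2.50 ± 1.25 to 13.0 ± 2.53 normalised counts in the knockdown and from 57.9 ± 3.51 to 150 ± 12.7 with MS023 and 111 ± 20.8 with GSK3368715 (SD, n = 3). Il13ra1 passed the filter of 10 normalised counts in 3 knockdown libraries only through the shPrmt1 group. It could therefore not be called lower there, and its call lends no support to the count of 4. In the knockdown Il6st, the shared receptor of the IL-6 family, rose by 0.44 and Jak1 by 0.30 on the log2 scale. Of the feedback regulators, Usp18, which blocks the type I interferon receptor, rose by 1.63 in the knockdown and 0.45 with MS023, and was not called with GSK3368715 (0.51, adjusted p = 0.054, limma). Socs2 was lower in the knockdown by −0.54. In all, 1 of 12 was called higher and 1 lower in the knockdown, 4 of 13 higher with MS023 (Ptpn6, Pias3, Pias1 and Usp18) and 2 of 13 with GSK3368715 (Ptpn6 and Pias3). The feedback counts in the knockdown lie near the shares of all genes, 7.5% higher and 7.17% lower. Of other genes of the family or named after it, Irf2bpl was called lower in the knockdown (−0.45) and with MS023 (−0.31), and Stat5b was called higher with MS023 (0.17).

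**Figure D4:**
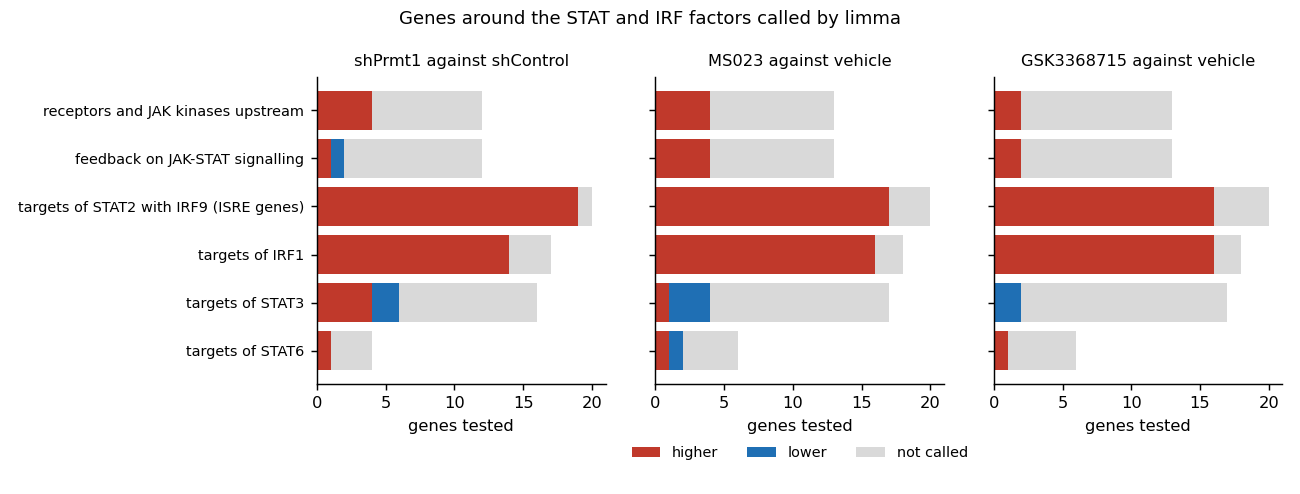
Number of genes tested in each list around the STAT and IRF factors, coloured by whether limma called them higher, lower or not, for the 3 comparisons with a control. The targets of STAT2 with IRF9 and of IRF1 are mostly called higher in each panel, and those of STAT3 and STAT6 mostly not called.

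The members did not all follow the same course over the 15 libraries. After subtracting the mean of the control group of the same table, Irf7 and Irf9 had a Pearson correlation of 0.98 on the log2 scale, Stat2 and Irf7 of 0.80, and Stat6 and Irf7 of −0.88. Irf1 was nearest to Stat3, at 0.86, and its correlation with Irf7 was 0.38. The points share their groups and controls, so these values describe mostly the differences between groups. Among the 11471 genes tested in both tables, those most like Irf7 were Trim12c, Ifitm3 and Tgtp2, each at 0.99. Ifit3, Mettl3 and Ifit1 were most like Stat2, each at 0.97. For Stat3 they were Map4k1 (0.96), Ppil2 (0.95) and Tbc1d13 (0.95), and for Irf1 Ddx39b, Iscu and Pdf (each 0.94). Ifit3b (0.93), Chtop (0.91) and Ube2l6 (0.91) were most like Irf5, and Akap17b (0.93), Gm7045 (0.90) and Gm42718 (0.89) most like Irf2.

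On mm10, in the GENCODE M21 annotation, Stat2 (ENSMUSG00000040033) lies on chromosome 10 from 128270559 to 128292849 and Stat6 (ENSMUSG00000002147) on chromosome 10 from 127642986 to 127660957, both on the plus strand. Irf1 (ENSMUSG00000018899) lies on chromosome 11 from 53770014 to 53778374 on the plus strand and Stat3 (ENSMUSG00000004040) on chromosome 11 from 100885098 to 100939540 on the minus strand. Irf2 (ENSMUSG00000031627) and Irf8 (ENSMUSG00000041515) are both on the plus strand of chromosome 8, from 46739732 to 46847458 and from 120736358 to 120756694. Irf5 (ENSMUSG00000029771) is at 29526625 to 29541871 on the plus strand of chromosome 6, Irf7 (ENSMUSG00000025498) at 141262706 to 141266481 on the minus strand of chromosome 7, and Irf9 (ENSMUSG00000002325) at 55603571 to 55610030 on the plus strand of chromosome 14. No member had a near-identical copy elsewhere in the annotated transcripts. Besides the overlaps given above, exon bases were shared on the opposite strand by Irf7 with Phrf1 (45 bases), Stat3 with Stat5a (72 bases) and Irf1 with Gm17334 (135 bases), and neither Phrf1 nor Stat5a was called against a control.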

How the data were processed

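RNA was sequenced as paired-end reads from 15 libraries of CT26 cells. The authors quantified them with Salmon 1.4.0 on mm10, per the labels, and deposited, for each gene, a normalized signal, that is, its count over the DESeq2 size factor of the library. The authors also deposited 3 tables of their own comparisons (log2 fold changes and p-values), left unused. Divided by 1 constant per library, 100% of the values came out whole within 0.1 of a count, which gave back whole counts per gene. These come from the Salmon quantification and are called reads here, but they were not counted directly from alignments.

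A gene entered a fit if 3 or more of its libraries had 10 or more normalized counts, and was tested with limma 3.58.1 (lmFit and eBayes with a trend, R 4.3.3) on log2(normalized count + 1), two-sided, with Benjamini-Hochberg adjustment over all genes tested and a threshold of 0.05. Changes of genes with few reads are understated on this scale. The knockdown was fitted on 6 libraries and the inhibitors on 9 libraries together. On the recovered reads edgeR 4.0.16 called 1712 genes in the knockdown, 3620 with MS023 and 1242 with GSK3368715, and DESeq2 1.42.0 was run as well. Other alternatives were the pseudocount, the filter, rescaling to the same total or upper quartile, no trend, a block for replicate number, a fit of the compared groups alone, an absolute log2 fold change of 1, and each library left out. Levels per length used the principal transcript of GENCODE M21, with all reads of the gene. Copies were searched with blastn 2.17.0 at 95% identity over at least 30% of a transcript. The scripts were tested on simulated data. Reads carry no molecular identifiers, so their number bears on counting error only.

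The genes named are the 9 members, up to 4 genes of each list with the smallest adjusted p per comparison, overlapping genes, and the 3 genes most like each member called in at least 2 comparisons with a control. Genes of the lists outside this rule (Ifit2, Mx1, Psmb9, Psmb10, Tap2, Nlrc5, the cell type markers with their changes, and repeats of a named gene in another comparison) were chosen after their values were seen. The members and lists were chosen with earlier results of these data known. Results of 1 item in the list of other family genes are not reported here.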

Additional observations from a re-analysis of the deposited data

How the results depend on the processing

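Against the controls, no member changed direction under any alternative, and the 4 members called in the knockdown kept their calls unless a minimum fold was asked for; each count below is of genes or members past the threshold. In the knockdown, 141 of 142 alternatives left a member's call as it was; Irf5 passed without a trend (adjusted p = 0.0499). With MS023, 13 of 180 lost a call (Irf2, Irf5, Irf8) and 4 gained one, and with GSK3368715, 5 lost one (Irf7, Stat3) and 1 gained one. For each compound, not every lost call is named in the text. All gains were of Irf9, which with MS023 also passed by DESeq2 (adjusted p = 0.039) and after rescaling to an equal total (0.044) or upper quartile (0.034). Requiring an absolute log2 fold change of 1 left 1 member in the knockdown and 0 with each inhibitor, and 275, 365 and 114 genes, and 4 genes between the inhibitors. Fitting only the groups compared left 597 genes for GSK3368715. Between the inhibitors, DESeq2 called 365 genes, no filter 38 and no trend 8, against 67.

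Leaving out each library gave 652 to 2472 genes in the knockdown (1684 with all libraries; 652 without shControl 1, 723 without shControl 3, 883 without shControl 2, 1072 without shPrmt1 3), 2409 (without MS023 2) to 3726 with MS023, 586 (without vehicle 3) to 1274 with GSK3368715 (757 and 778 without GSK3368715 1 and 3), and 2 to 114 between the inhibitors. It gave 4 members in the knockdown throughout, 4 (without MS023 3) to 7 with MS023 and 5 to 7 with GSK3368715.

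Replicate numbers are not stated to pair the libraries. The correlation of same-numbered deviations was weak, positive throughout in the knockdown (0.061 to 0.12) and of either sign among the inhibitor groups (−0.10 to 0.11). With a replicate block, 2671 genes were called in the knockdown and 4 between the inhibitors, and of the members' calls only that of Irf8 with MS023 was lost (adjusted p = 0.082).

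Reversed signs were all between the inhibitors, near 0. Irf1 (0.014) went to −0.0057 on the same total and −0.033 on the same upper quartile, Irf9 (−0.00032) to 0.0023 by DESeq2 and 0.00018 by edgeR. Without 1 library, Irf1 ranged from −0.034 to 0.083, Irf9 from −0.063 to 0.053, Stat6 from −0.062 to 0.028, Irf5 from −0.033 to 0.32 and Irf8 from −0.12 to 0.12. The cause was not tested. Depth limits Irf5 and Irf8 in the knockdown, and a stricter ISRE matched Stat2 and Irf2 again, whereas a GAS with a gap of 4 matched Stat2 and Irf9 and none of Irf1, Irf2 and Irf8.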
